A study of Mus musculus with 12 samples.

Results

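Fear conditioning was compared with the naive state in the amygdala of B6 mice, using 4 of the 12 libraries of the series. The fear-conditioned (FC) libraries were B6 FC BLA and B6 FC CeA, and the naive libraries were B6 naive BLA and B6 naive CeA, matched by region. All came from male wild-type C57BL/6 (B6) mice, and each was 1 library of polyadenylated RNA. BLA is the basolateral amygdala and CeA the central amygdala. The design text speaks of the medial CeA. The other libraries came from the same regions of B6 mice after extinction and of 129S1/SvImJ (S1) mice, the strain in which the series studied impaired extinction. The labels do not state the shock protocol, the time from conditioning to dissection, the age of the mice or how many went into a library. Nor do they say whether 1 mouse gave both BLA and CeA tissue. Each p-value therefore rests on how far the 2 regions differed in their change and on a spread pooled over genes, not on the spread between mice.

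In fear conditioning a tone or place is paired with a shock, and the association is stored largely in excitatory neurons of the BLA, which drive inhibitory circuits of the CeA that control freezing. Firing neurons switch on immediate early genes, mostly transcription factors such as Fos and Npas4, within minutes, and these act on effector genes such as Arc and Bdnf that change synapses. Much of this first wave runs through the factor CREB, which binds a promoter element called the cyclic AMP response element (CRE). The shock also raises corticosterone, which acts through the glucocorticoid receptor on its own target genes.

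The promoters of activity genes that were higher in both FC libraries are shown because CREB elements are the best known route from firing to these genes. Of the 9 immediate early and effector genes with a positive change and an unadjusted p under 0.05, 7 had a promoter in the RefSeq table for GRCm38.p6, in windows of equal length around the gene's start. Capitals mark TGACG, the core of the CRE, on either strand, and the full CRE, TGACGTCA, which contains it on both strands. The 5 promoters with a core lie at chr12:85473640-85473939 on the plus strand (Fos), and on the minus strand at chr7:19309996-19310295 (Fosb), chr19:4989922-4990221 (Npas4), chr1:134079106-134079405 (Btg2) and chr17:26508423-26508722 (Dusp1). Each is printed 5′ to 3′ on the strand of its gene.
Fos: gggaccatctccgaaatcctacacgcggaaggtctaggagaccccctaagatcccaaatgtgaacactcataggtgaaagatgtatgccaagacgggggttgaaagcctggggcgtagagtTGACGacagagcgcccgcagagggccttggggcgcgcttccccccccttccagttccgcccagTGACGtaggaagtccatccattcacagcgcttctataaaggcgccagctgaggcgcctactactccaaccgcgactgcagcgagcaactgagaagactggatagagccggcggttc
Fosb: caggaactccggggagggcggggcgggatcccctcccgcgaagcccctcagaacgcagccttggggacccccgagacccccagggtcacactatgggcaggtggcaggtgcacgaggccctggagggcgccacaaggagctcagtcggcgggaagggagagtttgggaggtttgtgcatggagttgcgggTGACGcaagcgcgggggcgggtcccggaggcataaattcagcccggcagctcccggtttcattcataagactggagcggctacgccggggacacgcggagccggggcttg
Npas4: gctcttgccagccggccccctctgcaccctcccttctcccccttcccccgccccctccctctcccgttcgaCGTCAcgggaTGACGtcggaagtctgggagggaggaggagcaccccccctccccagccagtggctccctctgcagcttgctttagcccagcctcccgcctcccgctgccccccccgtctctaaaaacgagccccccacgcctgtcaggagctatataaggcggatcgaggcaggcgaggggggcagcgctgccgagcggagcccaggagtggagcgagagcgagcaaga
Btg2: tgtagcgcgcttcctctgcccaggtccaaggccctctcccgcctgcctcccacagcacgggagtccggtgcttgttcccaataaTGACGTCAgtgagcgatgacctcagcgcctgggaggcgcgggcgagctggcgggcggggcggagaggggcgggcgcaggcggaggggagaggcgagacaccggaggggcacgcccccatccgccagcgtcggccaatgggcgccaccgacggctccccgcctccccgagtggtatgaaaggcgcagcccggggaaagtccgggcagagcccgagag
Dusp1: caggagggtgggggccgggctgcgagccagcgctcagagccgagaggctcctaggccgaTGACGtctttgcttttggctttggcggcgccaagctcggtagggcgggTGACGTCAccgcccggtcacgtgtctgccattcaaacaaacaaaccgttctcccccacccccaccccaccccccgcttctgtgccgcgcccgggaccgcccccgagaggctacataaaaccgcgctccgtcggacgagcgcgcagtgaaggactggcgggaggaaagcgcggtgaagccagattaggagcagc

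A core stood in 5 of these 7 promoters, against 28.7% of the 15881 promoters of genes tested. The full CRE stood in 2 of the 7, Btg2 and Dusp1, against 2.8%, and the TATA box TATAAA in 3 of the 7, against 7.67%. The AP-1 site TGANTCA (5.31% of promoters) and the CArG box of serum response factor (1.31%), both searched on both strands, were in 0 of the 7 windows, which says only that these letters are not there. Gadd45b and Inhba were the matched genes without a core. A match describes the letters and not binding. The 7 were picked from lists of known activity genes by their values in these data, and no share was taken over the other members. The shares therefore do not set the genes that were higher apart from the rest of their lists.

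Total gene counts were 57206071 in FC BLA and 45117479 in FC CeA, against 54925204 in naive BLA and 47888634 in naive CeA, with 17379 to 17526 genes detected in each. A floor of 3 counts was 0.0524 to 0.0665 CPM (counts scaled to library size), and floors here cover counting error alone. The SE values given after ± come from the edgeR fit and hold more than counting error, but not the spread between mice. Marker sums followed the region labels. Cyp26b1 of the CeA list did not, with 222.2 and 240.2 CPM in FC and naive BLA, against 96.3 and 109.3 CPM in CeA. Sema3c of that list was near level between regions. Striatum markers were also higher in CeA, summing to 2747 and 2764 CPM in FC and naive CeA, against 580.2 and 651.1 CPM in BLA. BLA excitatory neuron markers summed to 4271 CPM in FC BLA and 4249 CPM in naive BLA, against 649.4 CPM in FC CeA and 982.5 CPM in naive CeA, and CeA markers summed to 5109 CPM in FC CeA and 4799 CPM in naive CeA, against 877.2 CPM in FC BLA and 884.1 CPM in naive BLA. The CeA libraries thus differed in excitatory marker RNA between conditions, and those values stand beside the results they touch. In bulk tissue, fewer cells of a type and less RNA per cell cannot be told apart.

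Few genes passed the threshold over both regions. Of 15940 genes tested with edgeR's quasi-likelihood test (region and condition as terms, adjusted p threshold 0.05), 3 rose and 8 fell after conditioning, which is 0.0188% and 0.0502% of genes and 0.069% in all. DESeq2 called 8 of the 11 (not Tmem181c-ps, Phc3 or DXBay18), limma on log2(FPKM + 1) 7, and edgeR with no filter on low counts 6. The calls rest on all 4 libraries. In a fit that adds the 4 naive and conditioned S1 libraries 0 genes passed (369 at an unadjusted p under 0.05), and without any 1 of the B6 libraries the 8-library fit kept 2 of the 11, Shroom2 and Tmem181c-ps. At an unadjusted p under 0.05, 152 genes were higher (0.954%) and 240 lower (1.51%). At least 1.5-fold higher in both regions were 109 genes (0.684%), and at least 1.5-fold lower in both were 120 (0.753%), while 201 (1.26%) moved by 1.5-fold in opposite directions. In BLA alone 506 genes (3.17%) were at least 1.5-fold higher and 723 (4.54%) lower, and in CeA alone 643 (4.03%) and 800 (5.02%). The median size of the log2 fold change was 0.14 in BLA and 0.13 in CeA. Across genes, which are not independent replicates, the changes in BLA and CeA had a Pearson r of 0.0289 and a Spearman rho of −0.163. The change also followed transcript length with opposite signs, with a rho of −0.302 in BLA and 0.158 in CeA.

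**Figure D1:**
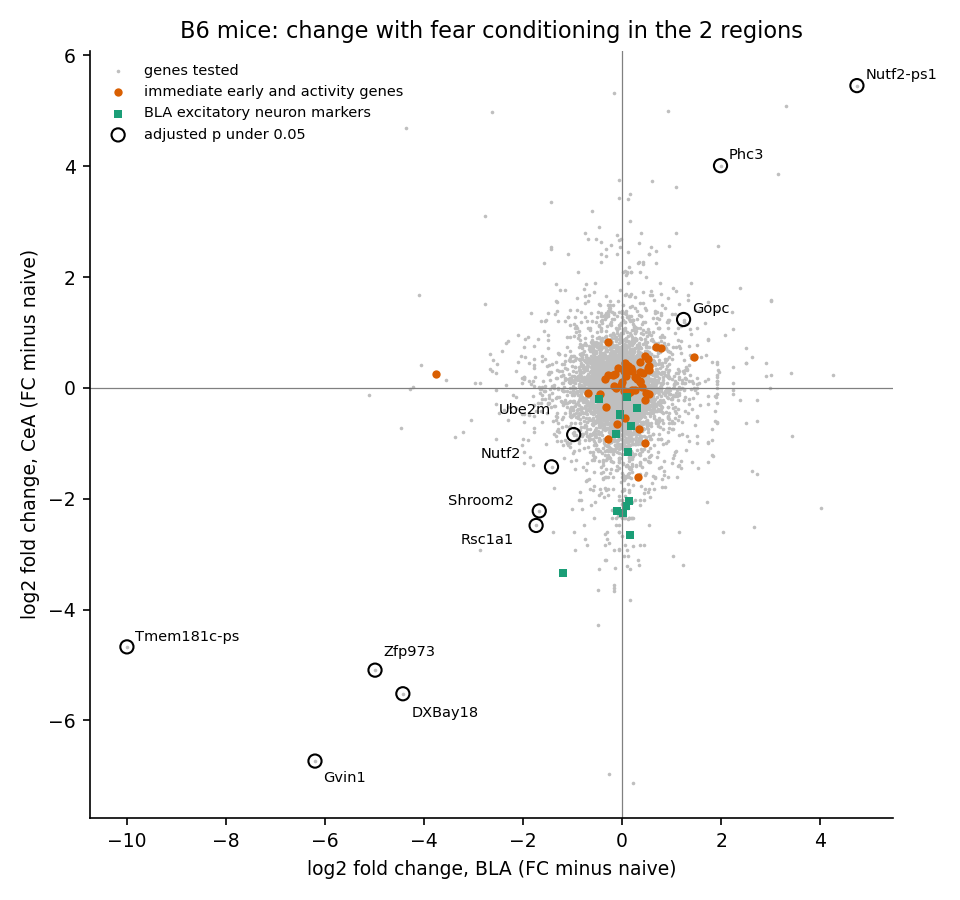
Log2 fold change (FC minus naive, prior count 2) of each gene tested in BLA (horizontal axis) and CeA (vertical axis), 1 library a side in each. The 11 genes past the threshold are circled, most activity genes (orange) sit close to the centre and right of it, and BLA excitatory neuron markers (green) mostly reach down in CeA.

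The 3 genes that rose were Nutf2-ps1, Gopc and Phc3. Gopc, a Golgi scaffold protein that directs the trafficking of membrane proteins, lies on chromosome 10 at 52337024 to 52382124 (mm10). It had 71.99 CPM in FC BLA and 76.2 CPM in FC CeA, against 30.3 CPM in naive BLA and 32.5 CPM in naive CeA (log2 fold change 1.24 ± 0.12 SE, edgeR adjusted p = 0.0040). Both FC libraries stood above both naive libraries, and the change was nearly the same in each region. Its counts were listed on 2 transcripts, and the longer one, of 4317 bases, held most of the difference, with 3860 and 2419 counts in the FC BLA and CeA libraries against 1049 and 1003 in the naive ones. The shorter one, of 4293 bases, had 258 and 1020 counts in FC libraries against 613 and 553 in naive libraries.

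Phc3 encodes a subunit of Polycomb repressive complex 1, which keeps silenced genes silent (chromosome 3, 30899295 to 30969415). It had 58.1 CPM in FC BLA and 68.0 CPM in FC CeA, against 14.6 CPM in naive BLA and 4.197 CPM in naive CeA (log2 fold change 2.95 ± 0.37, edgeR adjusted p = 0.032). The reads moved among its transcripts as well: one of 10925 bases had 1338 counts in FC BLA, 0 in FC CeA, 0 in naive BLA and 100 in naive CeA. In S1 mice Gopc had 77.4 and 73.7 CPM in FC BLA and CeA, against 32.2 and 83.8 CPM in the naive ones. Its S1 log2 fold change was 1.25 in BLA, near that of B6 mice, and −0.17 in CeA. Phc3 had 20.0 and 94.3 CPM in S1 FC BLA and CeA, against 75.1 and 91.3 CPM in the naive ones. It was thus lower in FC in S1 BLA (−1.92) and level in S1 CeA (0.06). The S1 range of Gopc held levels near both B6 conditions, and that of Phc3 held the B6 FC levels.

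Of the 8 genes that fell, Shroom2, Ube2m and Nutf2 were the best expressed. Shroom2, an actin-binding protein that shapes cells (X chromosome, 152609509 to 152769486), had 29.0 CPM in FC BLA and 23.7 CPM in FC CeA, against 92.1 CPM in naive BLA and 111.2 CPM in naive CeA (log2 fold change −1.95 ± 0.15, edgeR adjusted p = 0.0010). Its counts were spread over 5 transcripts, and those of 4633 and 4815 bases carried most of the fall. In S1 mice Shroom2 ranged from 33.2 to 107.5 CPM and followed the region, not the condition, with 37.7 CPM in FC BLA and 99.2 CPM in FC CeA, against 33.2 and 107.5 CPM in the naive BLA and CeA libraries.

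Ube2m, the enzyme that attaches the ubiquitin-like protein NEDD8 to cullins (chromosome 7, 13035120 to 13038275), had 71.0 CPM in FC BLA and 72.2 CPM in FC CeA, against 139.2 CPM in naive BLA and 130.0 CPM in naive CeA (log2 fold change −0.91 ± 0.12, edgeR adjusted p = 0.035). This was the smallest change among the 11, and the groups stood well apart. In S1 mice the gene kept to 98.4 to 124.6 CPM, between the 2 B6 levels. Most of its counts were on the transcript of 1295 bases, with 3046 and 2509 counts in the FC BLA and CeA libraries against 5855 and 5969 in the naive libraries.

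Nutf2 imports the GTPase Ran into the nucleus, and Nutf2-ps1 is a pseudogene whose listed position lies within it (chromosome 8, 105860660 to 105879337). Nutf2-ps1 had 35.7 CPM in FC BLA and 32.8 CPM in FC CeA, against 1.29 CPM in naive BLA and 0.71 CPM in naive CeA (log2 fold change 5.11 ± 0.21, edgeR adjusted p = 5.7e-06). Nutf2 fell by 1.43 ± 0.13 on the log2 scale (edgeR adjusted p = 0.0021), to 17.7 and 19.0 CPM in the FC libraries, against 47.5 and 51.1 CPM in the naive libraries. The pair summed to 53.5 CPM in FC BLA and 51.7 CPM in FC CeA, against 48.7 CPM in naive BLA and 51.8 CPM in naive CeA, so reads counted to the 2 overlapping records offset each other. Neither can be read as a change of Nutf2 RNA on its own.

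Tmem181c-ps, a pseudogene copy of a transmembrane protein gene on chromosome 17, had 0 CPM in FC BLA and 1.75 CPM in FC CeA, against 38.1 CPM in naive BLA and 45.9 CPM in naive CeA (log2 fold change −5.95 ± 0.66, edgeR adjusted p = 0.013). With its copies Tmem181a and Tmem181b-ps it summed to 606.5 CPM in FC BLA and 655.9 CPM in FC CeA, against 608.0 CPM in naive BLA and 682.5 CPM in naive CeA, which differ by at most 0.06 in log2. Tmem181c-ps was a small part of these sums, with 2092 and 2197 counts in naive BLA and CeA. Tmem181b-ps had 24317 and 24087 counts there. A near-level sum therefore does not show whether reads moved to the copies, which was not tested. Rsc1a1, a regulator of solute carriers in human cells that lies inside Ddi2 (chromosome 4, 141683563 to 141685716), had 0.89 and 0.98 CPM in the FC BLA and CeA libraries, against 3.04 and 5.66 CPM in the naive ones (log2 fold change −2.15 ± 0.29, edgeR adjusted p = 0.035). Rsc1a1 and Ddi2 together had 23.3 CPM in FC BLA and 25.5 CPM in FC CeA, against 28.9 CPM in naive BLA and 22.3 CPM in naive CeA, and the sum differed in opposite directions in the 2 regions.

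**Figure D2:**
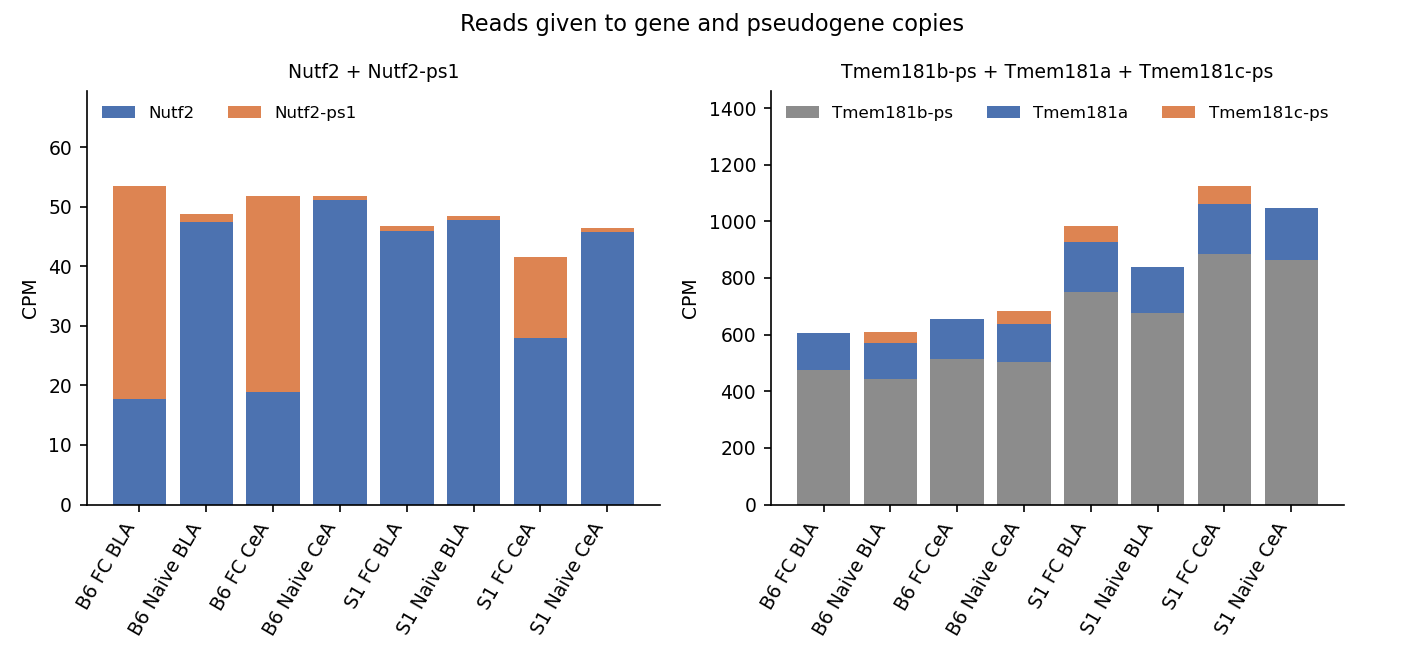
CPM given to Nutf2 and Nutf2-ps1 (left) and to the 3 Tmem181 records (right) in each B6 and S1 library, stacked, with FC left of naive in each pair. The total of Nutf2 and Nutf2-ps1 stays between 41.6 and 53.5 CPM while the share given to the pseudogene differs, and in Tmem181 the total differs by strain while Tmem181c-ps is present or near 0.

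The remaining 3 were weakly expressed and shared sequence or position with other genes, so their counts are uncertain. Gvin1, a very large interferon-inducible GTPase in a cluster of near copies, had 2 counts in FC BLA and 0 in FC CeA, against 289 in naive BLA and 207 in naive CeA (fitted log2 fold change −7.80, edgeR adjusted p = 0.00032). The zinc finger gene Zfp973 had 0 counts in both FC libraries and 128 in the naive libraries together, at least 42.5-fold lower against a floor of 3 counts over the group. DXBay18, a record on the X chromosome that overlaps Xlr5a and Xlr5b, likewise had 0 counts against 130, at least 43.1-fold lower, and both had an edgeR adjusted p of 0.035. S1 libraries held from 0 to 3.01 CPM of Zfp973 and from 0 to 2.03 CPM of DXBay18.

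Immediate early transcription factors were mostly a little higher in FC mice, and 0 of 22 tested (of 23 listed) passed the threshold. In BLA 14 of the 22 were higher, against 49.3% of all genes, and in CeA 15, against 49.9%. In both regions 10 were higher and 3 lower, against 19.8% and 20.5% of all genes. Their median log2 fold change was 0.10 in BLA and 0.28 in CeA, against 0.00 in both regions for all genes tested. At an unadjusted p under 0.05 there were 4 higher and 1 lower, against 0.954% and 1.51% of all genes. The lists were compiled with earlier results of these data known, so these counts are descriptions.

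Fos, which pairs with Jun proteins as AP-1, had 17.2 CPM in FC BLA and 10.02 CPM in FC CeA, against 9.96 CPM in naive BLA and 6.06 CPM in naive CeA. It was higher by about the same factor in each region (log2 fold change 0.76 ± 0.15, edgeR adjusted p = 0.34, not past the threshold). Fosb, a second AP-1 member whose stable form builds up with repeated firing, had 16.1 and 14.2 CPM in FC BLA and CeA, against 11.6 and 9.59 CPM in the naive libraries (0.52 ± 0.14). Npas4, a factor that responds to calcium entry and shapes inhibitory synapses, had 21.1 CPM in FC BLA and 30.7 CPM in FC CeA, against 14.4 CPM in naive BLA and 23.4 CPM in naive CeA (0.47 ± 0.13). The antiproliferative cofactor Btg2 had 10.03 and 12.99 CPM in FC BLA and CeA, against 7.76 and 9.42 CPM in the naive libraries (0.42 ± 0.15). Fosb, Npas4 and Btg2 each had an edgeR adjusted p of 1.

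Other members of the list were level, higher or lower, and none of those named next passed the threshold. Egr1, a zinc finger factor often used to mark active neurons, had 124.6 CPM in FC BLA and 145.6 CPM in FC CeA, against 125.4 CPM in naive BLA and 140.2 CPM in naive CeA, and so was level. Egr2 (0.45), Egr3 (0.27), Egr4 (0.26), Junb (0.25) and Nr4a1 (0.25) had small positive log2 fold changes in both regions. Nr4a2 was lower in both, with 34.9 and 2.24 CPM in FC BLA and CeA, against 42.5 and 4.30 CPM in the naive libraries (−0.55 ± 0.17). It is far more abundant in BLA. Its larger difference was in CeA (−0.92, against −0.29 in BLA), where the excitatory markers given below were lower too. Jund stood at 8.85 CPM in FC BLA, against 119.8 CPM in naive BLA, while CeA had 160.7 CPM in the FC and 135.7 CPM in the naive library. That single library set the value of Jund, since the other 7 naive and conditioned libraries of both strains held 106.2 to 160.7 CPM.

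**Figure D3:**
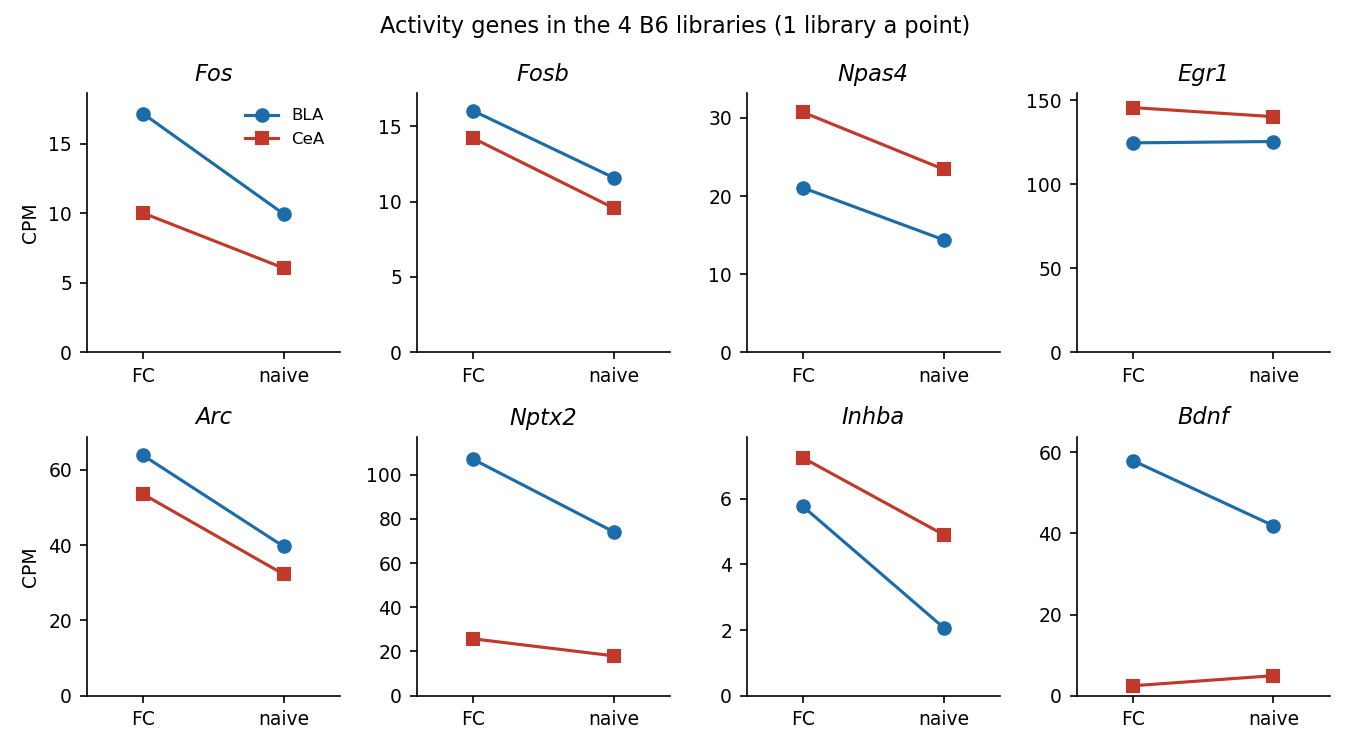
CPM of 8 activity genes in FC (left) and naive (right) libraries of B6 mice, with BLA as blue circles and CeA as red squares, 1 library a point. Fos, Fosb, Npas4, Arc, Nptx2 and Inhba are higher in FC in both regions, Egr1 is level, and Bdnf is higher in FC BLA and lower in FC CeA.

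Effector genes of neuronal activity followed the same pattern. Of 32 tested, 0 passed the threshold, 16 were higher in both regions and 2 lower in both (19.8% and 20.5% of all genes), and the median log2 fold change was 0.28 in BLA and 0.16 in CeA. Arc, which moves AMPA receptors off the synapse and is translated in dendrites, had 63.8 CPM in FC BLA and 53.5 CPM in FC CeA, against 39.6 CPM in naive BLA and 32.3 CPM in naive CeA (0.71 ± 0.12, edgeR adjusted p = 0.13). Nptx2, a secreted pentraxin that clusters AMPA receptors, had 107.0 and 25.7 CPM in FC BLA and CeA, against 74.2 and 18.0 CPM in the naive libraries (0.52 ± 0.12, edgeR adjusted p = 0.64). In both genes the FC library was the higher one in each region by nearly equal factors. Inhba, the subunit of activin A, had 5.77 CPM in FC BLA and 7.25 CPM in FC CeA, against 2.08 CPM in naive BLA and 4.91 CPM in naive CeA (0.9996 ± 0.24, edgeR adjusted p = 0.80).

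Gadd45b, which takes part in DNA demethylation in neurons, had a log2 fold change of 0.44, and the phosphatase gene Dusp1, which switches off MAP kinases, had 0.33. The regions parted for Bdnf, the growth factor needed for fear memory in the BLA, with 57.9 CPM in FC BLA and 41.9 CPM in naive BLA, but 2.44 CPM in FC CeA and 4.93 CPM in naive CeA. The neurite growth gene Nrn1 did likewise, with 221.1 CPM in FC BLA and 174.9 CPM in naive BLA, against 5.94 CPM in FC CeA and 18.3 CPM in naive CeA. Both are far more abundant in BLA than in CeA, and in CeA they were lower together with the excitatory markers given below. Homer1, a scaffold with an activity-induced short form, was level at 112.8 and 91.9 CPM in FC BLA and CeA, against 109.9 and 96.3 CPM in the naive libraries.

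Glucocorticoid-responsive genes were higher in FC mice more often than not. None of the 19 tested passed the threshold, 12 were higher in both regions and 2 lower (19.8% and 20.5% of all genes), and the median log2 fold change was 0.21 in BLA and 0.20 in CeA. Tsc22d3 (GILZ), a direct receptor target, had 61.3 CPM in FC BLA and 77.5 CPM in FC CeA, against 47.5 CPM in naive BLA and 61.1 CPM in naive CeA (0.36 ± 0.12). The lipid droplet gene Plin4 had the largest log2 fold change of the list, 1.15 ± 0.42, at levels of 1.049 and 1.884 CPM in FC BLA and CeA against 0.66 and 0.61 CPM in the naive libraries. The sulfotransferase gene Sult1a1 had 0.60 ± 0.19. Fkbp5, the receptor's chaperone and feedback inhibitor, had 0.23 ± 0.12, the kinase gene Sgk1 had 0.22 ± 0.12, and Zbtb16, a zinc finger target, was lower at −0.32 ± 0.14. The edgeR adjusted p was 1 for all 6 of these genes. Dusp1, Errfi1 and Per1 were also on the effector list, and Dusp1 and Errfi1 count as higher in both regions in each list.

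Of 33 glutamate transmission genes 0 passed the threshold, 3 were higher and 13 lower in both regions (19.8% and 20.5% of all genes), and 5 were lower at an unadjusted p under 0.05 (1.51% of all genes). The 5 were Grin2b, Grin2a, Gria2, Slc17a7 and Grm2. Grin2b, the NMDA receptor subunit GluN2B, had 12.03 CPM in FC BLA and 7.78 CPM in FC CeA, against 21.6 CPM in naive BLA and 13.3 CPM in naive CeA (−0.81 ± 0.14, edgeR adjusted p = 0.15). Grin2a, the subunit GluN2A, had 9.48 and 3.08 CPM in FC BLA and CeA, against 13.8 and 3.84 CPM in the naive libraries (−0.44 ± 0.17). Both were lower in each FC library. The AMPA receptor subunit gene Gria2 was lower mainly in BLA, with 377.8 CPM in FC BLA and 661.6 CPM in naive BLA, against 565.7 CPM in FC CeA and 640.3 CPM in naive CeA (−0.49 ± 0.16). Slc17a7 (−1.15 ± 0.38) and the presynaptic receptor gene Grm2 (−0.56 ± 0.19) differed mainly in CeA, where excitatory markers were lower in the FC library. Grm2 had 88.8 CPM in FC BLA and 8.91 CPM in FC CeA, against 97.2 CPM in naive BLA and 18.3 CPM in naive CeA. Gria1 (0.02) and the obligatory NMDA subunit gene Grin1 (0.04) were level on the log2 scale.

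Of 27 GABA genes 0 passed the threshold, and 2 were higher and 4 lower in both regions (19.8% and 20.5% of all genes). Higher in FC BLA were 10 of the 27 (49.3% of all genes), and in FC CeA 15 (49.9%). The list medians were −0.12 in BLA and 0.01 in CeA. The GABA-synthesising enzymes Gad1 and Gad2 both had a log2 fold change of 0.00, and the vesicular GABA transporter Slc32a1 had −0.01. Among 21 neuropeptide genes tested, 10 were higher and 3 lower in both regions, beside the same shares of all genes. Crh, corticotropin-releasing hormone of CeA neurons, had 3.30 CPM in FC BLA and 61.6 CPM in FC CeA, against 2.26 CPM in naive BLA and 51.2 CPM in naive CeA (0.38 ± 0.14). Nts, neurotensin, was lower, with 5.75 and 93.1 CPM in FC BLA and CeA against 7.19 and 110.3 CPM in the naive libraries (−0.28 ± 0.12). Sst (0.02), Penk (0.03) and Pdyn (0.10), the abundant peptides of CeA, were level. The edgeR adjusted p was 1 for Crh, Nts, Sst, Penk and Pdyn.

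The phospholipase A2 family, lipases that release arachidonic acid and platelet-activating factor precursors, had 15 members tested, 0 past the threshold, and a median log2 fold change of −0.04. Pafah1b1, a subunit of the enzyme that inactivates platelet-activating factor, stood apart in BLA, with 216.7 CPM in FC BLA and 684.2 CPM in naive BLA, against 540.3 CPM in FC CeA and 575.2 CPM in naive CeA (−0.88 ± 0.29, edgeR adjusted p = 1). Its count was lower on both listed transcripts, with 6507 counts in FC BLA against 26427 in naive BLA on the one of 5517 bases, and 5889 against 11151 on the one of 5790 bases. S1 mice had a like difference in BLA, with a log2 fold change of −1.59 there and −0.08 in CeA, and with 6785 counts in FC BLA against 24113 in naive BLA on the transcript of 5517 bases. Heat shock genes were higher in FC BLA in 18 of 20 cases (49.3% of all genes), with a median of 0.21, and in FC CeA in 11 of 20 (49.9% of all genes), with a median of 0.00.

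**Figure D4:**
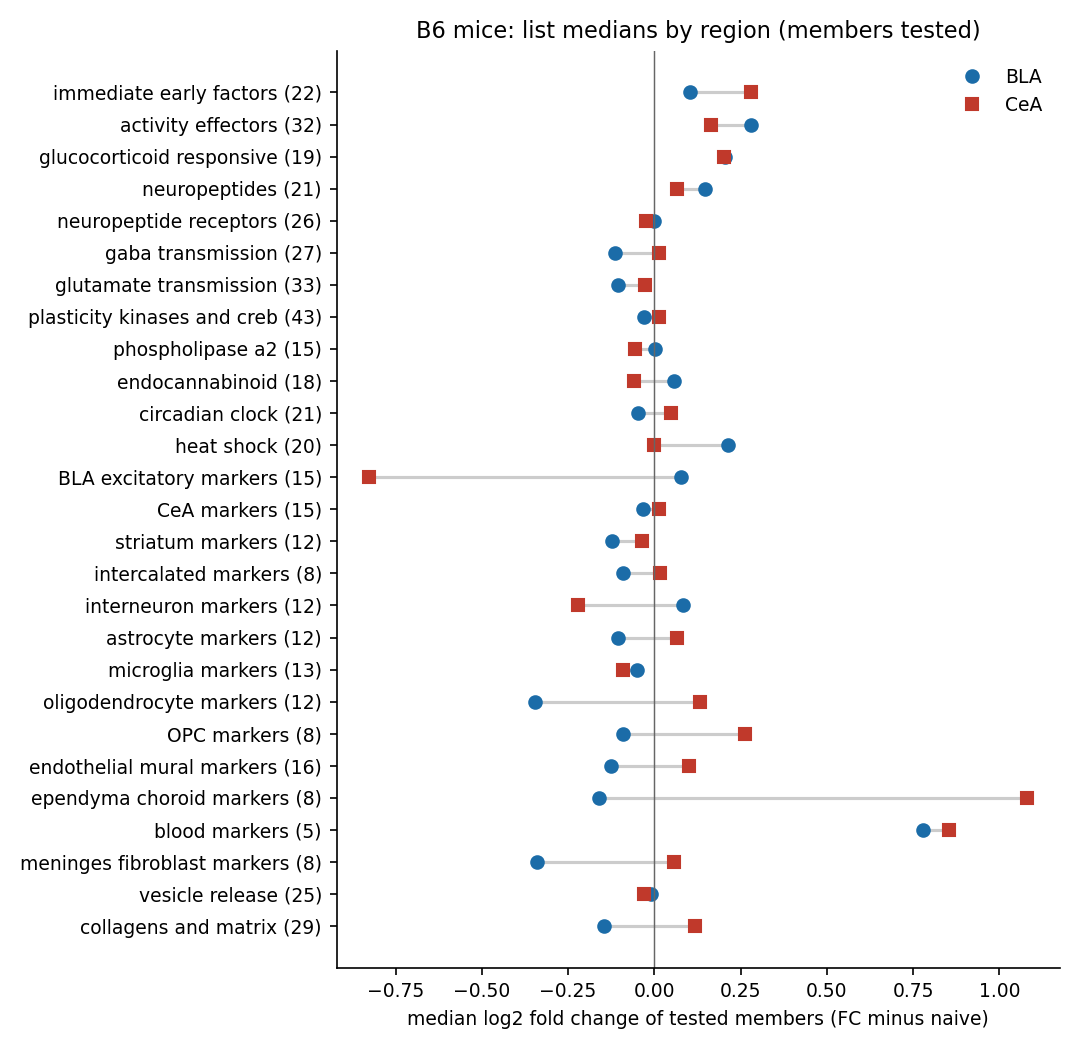
Median log2 fold change (FC minus naive) of the tested members of each gene list in BLA (blue circles) and CeA (red squares), with the number of members tested in brackets. Immediate early, effector and glucocorticoid-responsive genes lie right of 0 in both regions at 0.10 to 0.28, blood markers reach 0.78 and 0.85, BLA excitatory markers reach −0.83 in CeA, and ependymal and choroid plexus markers reach 1.08 in CeA.

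Some lists of cell type markers differed between the FC and naive libraries, with 1 library a side, and others were near level. CeA markers had median log2 fold changes of −0.03 in BLA and 0.01 in CeA, and microglial markers −0.05 and −0.09. BLA excitatory neuron markers had a median log2 fold change of 0.08 in BLA and −0.83 in CeA, where 9 of 15 were at least 1.5-fold lower (5.02% of all genes). Slc17a7, the vesicular glutamate transporter of cortical-type excitatory neurons, had 38.3 CPM in FC CeA and 178.9 CPM in naive CeA, against 1687 CPM in FC BLA and 1796 CPM in naive BLA. Neurod6, Tbr1 and Rspo2 had the same pattern, as did the peptide genes Cck, with 26.4 CPM in FC CeA and 64.4 CPM in naive CeA, and Grp, with 1.22 CPM in FC CeA and 4.45 CPM in naive CeA. None of these passed the threshold over both regions. In S1 mice the sign in CeA was the other one, with a median of 0.48 for the list and a log2 fold change of 2.48 for Slc17a7. The part of these markers in other CeA differences was not tested.

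Red blood cell genes were higher in both FC libraries, with 4 of 5 blood genes tested at least 1.5-fold higher in both regions (0.684% of all genes). Together the globin genes had 222.8 CPM in FC BLA and 290.5 CPM in FC CeA, against 137.6 CPM in naive BLA and 161.8 CPM in naive CeA, a log2 ratio of 0.69 and 0.84. S1 mice had log2 ratios of 0.99 in BLA and 0.50 in CeA. Hbb-bs, an adult beta globin, came nearest to the threshold (0.82 ± 0.12, edgeR adjusted p = 0.060), and Alas2, which makes heme in red cell precursors, had 1.48 ± 0.29. Ptprc, the white blood cell antigen CD45, was lower in FC (−0.70 ± 0.25). Ependymal and choroid plexus markers were at least 1.5-fold higher in FC CeA in 6 of 8 cases (4.03% of all genes), summing to 87.1 CPM in FC CeA and 67.0 CPM in naive CeA, against 12.1 CPM in FC BLA and 11.6 CPM in naive BLA. Of the 12 oligodendrocyte markers, 0 were higher in FC BLA (median −0.35), against 49.3% of all genes, and 10 were higher in FC CeA (median 0.13), against 49.9%.

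Beyond the lists, the genes with the largest change shared by both regions were again low in expression, and none passed the threshold. Higher in FC were Tekt4, a tektin of cilia (1.25 ± 0.33), Top2a, the topoisomerase of dividing cells (1.08 ± 0.35), the kinetochore gene Ska3 (1.28 ± 0.42), the Ras-association gene Rassf7 (1.21 ± 0.42), the protease gene Tmprss9 (0.90 ± 0.38) and the Sin3-associated gene Sap25 (3.81 ± 0.71), with 1.003 to 3.41 CPM on average over the 4 libraries. Eps8l1, a regulator of actin, had 9.68 and 12.6 CPM in FC BLA and CeA, against 5.74 and 5.33 CPM in the naive libraries (0.99 ± 0.18, edgeR adjusted p = 0.23). Hba-a1, an alpha globin, was also among them (1.22 ± 0.27). The value of Sap25 rests on the FC CeA library, with 28 counts in FC BLA and 567 in FC CeA, against 13 in naive BLA and 17 in naive CeA. No library held more than 567 counts of any of these 8 genes.

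Lower in both FC libraries were better-expressed genes as well. H2afy, the histone variant macroH2A1, had 48.2 CPM in FC BLA and 57.9 CPM in FC CeA, against 78.8 CPM in naive BLA and 97.5 CPM in naive CeA (−0.73 ± 0.12, edgeR adjusted p = 0.13). Golga1, a golgin of the trans-Golgi network, had 22.3 and 26.0 CPM in FC BLA and CeA, against 36.6 and 45.3 CPM in the naive libraries (−0.76 ± 0.12, edgeR adjusted p = 0.13). In both genes the FC values lay below both naive values. The metalloprotease gene Adamts20 (−0.90 ± 0.17), the collagen-binding gene Fmod (−1.05 ± 0.28) and the ubiquitin ligase gene Asb2 (−0.80 ± 0.25) had lower levels.

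Differences in one region, with a log2 fold change under 0.3 in size in the other, have no replicate check, since each region had 1 library a side. In BLA, Celf2, an RNA-binding splicing regulator, had 439.9 CPM in FC and 131.8 CPM in naive mice. Chtop, an mRNA export factor, had 133.8 CPM in FC and 49.0 CPM in naive BLA. S1 BLA held 509.3 CPM of Celf2 in FC and 505.7 CPM in naive mice, and 121.6 and 123.1 CPM of Chtop. For both genes the S1 BLA levels stood nearer the B6 FC than the B6 naive level. Lars2, the mitochondrial leucyl-tRNA synthetase, had 341.8 CPM in FC BLA and 17.7 CPM in naive BLA, while its S1 libraries ranged from 200.3 to 1018 CPM. Lower in FC BLA were Cers1, a ceramide synthase whose record overlaps Gdf1 (3.27 CPM in FC, 63.6 CPM in naive), the zinc transporter Slc30a4 (12.01 CPM in FC, 55.3 CPM in naive), Urgcp (21.8 CPM in FC, 75.6 CPM in naive) and Cdhr1 (0.79 CPM in FC, 2.97 CPM in naive), besides Jund. The weakly expressed Scgn (12 counts in FC BLA, 0 in naive BLA) and AI606473 (28 counts in FC BLA, 8 in naive BLA) completed the higher ones.

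In CeA the genes higher in FC were each low in the naive CeA library. Mdm4, an inhibitor of p53, had 112.0 CPM in FC CeA and 16.5 CPM in naive CeA, against 89.8 CPM in FC BLA and 96.5 CPM in naive BLA. The general transcription factor subunit Gtf2a1 had 62.3 CPM in FC CeA and 11.3 CPM in naive CeA, and Fam134c, an endoplasmic reticulum receptor for autophagy, 66.1 CPM in FC CeA and 15.3 CPM in naive CeA. Ino80d, a chromatin remodeller subunit (46.0 CPM in FC, 1.11 CPM in naive), and Elmod2 (23.1 CPM in FC, 2.15 CPM in naive) had the same shape. Lower in FC CeA were the histone gene Hist2h2aa2, which overlaps a copy (2 counts in FC, 571 in naive), Klhdc7a (0 counts in FC, 245 in naive), Nnmt (0 in FC, 26 in naive), Ccdc129 (0 in FC, 21 in naive) and Slc9a4 (6 in FC, 78 in naive). The last 3, Nnmt, Ccdc129 and Slc9a4, held 1.78 to 9.07 CPM in the BLA libraries, above their CeA levels.

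The change with conditioning was compared between B6 and S1 mice in a fit of the 8 naive and conditioned libraries. Of 16274 genes tested, 1 (0.00614%) differed past the threshold, and 391 had an unadjusted p under 0.05. It was Hbb-bs, with a B6 minus S1 difference of 13.05 (edgeR adjusted p = 0.0022). Its S1 counts were 0 in both FC libraries, against 1144 in naive BLA and 0 in naive CeA, while Hbb-b1, the record that overlaps it, had 2355 and 1589 counts in the S1 FC libraries against 4 and 893 in the naive ones. The fitted size therefore depends on zeros and on which beta globin record took the reads. Without S1 FC BLA or without S1 naive BLA the difference was 0.83 (edgeR adjusted p = 1), and over the other alternatives it ranged from 7.78 to 14.2, with an adjusted p of 1 also under DESeq2 and with a shared region term. Summed over beta globins, the log2 ratio was 0.77 in BLA and 0.82 in CeA of B6 mice, against 0.94 and 0.53 in S1 mice.

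In S1 mice the list medians of the log2 fold change were 0.19 in BLA and 0.26 in CeA for immediate early factors, 0.14 and 0.21 for effector genes, and 0.33 and 0.29 for glucocorticoid-responsive genes. Single members differed in sign, with Egr1 at −0.15 and Nr4a1 at −0.12 in S1 BLA, and Bdnf at −0.23 in S1 CeA. Fos had a log2 fold change of 0.29 in BLA and 0.86 in CeA of S1 mice, Arc 0.31 and 0.56, Inhba 1.57 and 0.94, and the glucocorticoid-responsive Plin4 2.01 and 2.56. The B6 minus S1 difference was 0.19 ± 0.23 for Fos and 0.28 ± 0.14 for Arc, neither of which passed (edgeR adjusted p = 1). The NMDA subunits had opposite signs, with Grin2b at 0.23 in BLA and 0.98 in CeA of S1 mice, and a B6 minus S1 difference of −1.40 ± 0.25 (edgeR adjusted p = 1). Of the genes the naming rule admits, the smallest p-values of negative sign belonged to Shroom2 (−1.97, edgeR adjusted p = 0.31), Gvin1 (−9.83, 0.96) and Wdr37 (−0.87, 0.96), none past the threshold. The rule leaves out pseudogenes and genes under a mean of 1 CPM, among them Tmem181c-ps (−20.46, edgeR adjusted p = 0.31) and DXBay18 (−17.5, 0.96), whose p-values were smaller than that of Gvin1.

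**Figure D5:**
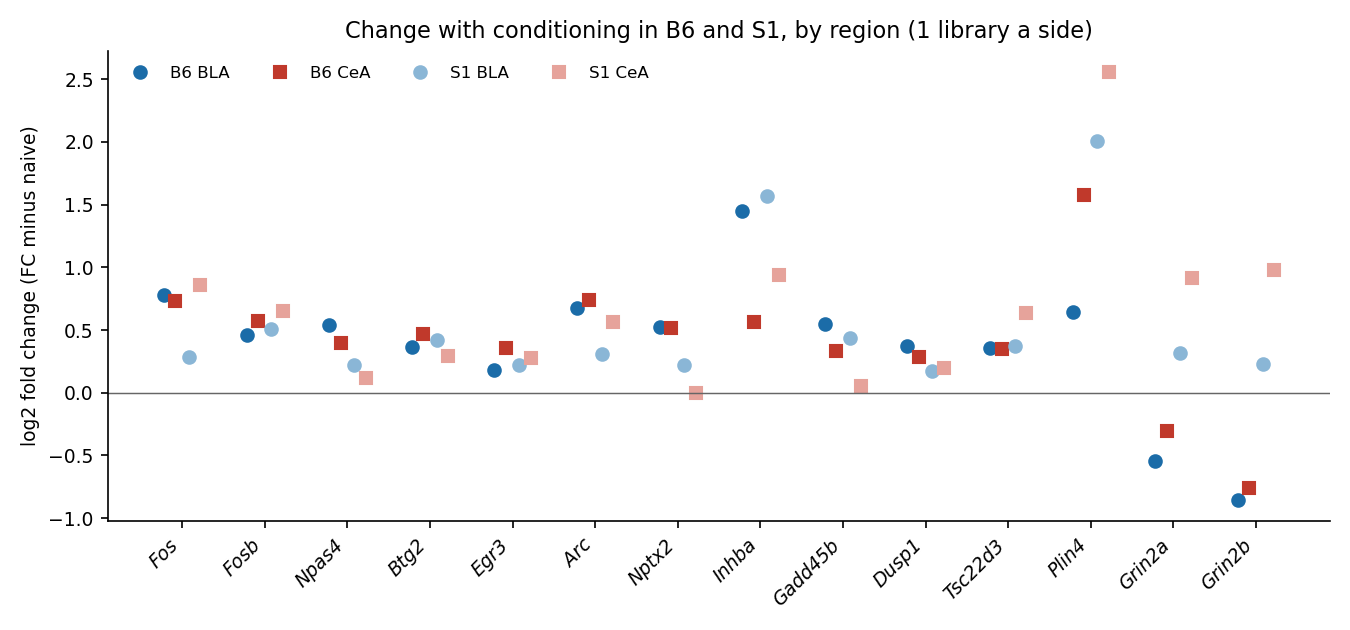
Log2 fold change (FC minus naive) of 14 genes in BLA (circles) and CeA (squares) of B6 mice (dark) and S1 mice (light), 1 library a side. The activity and glucocorticoid-responsive genes shown are above 0 in both strains, except Nptx2 at 0.00 in S1 CeA, and Grin2a and Grin2b are below 0 in B6 and above 0 in S1. List members that were level or lower in B6, such as Egr1, Nr4a2 and Zbtb16, are not shown.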

How the data were processed

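RNA of 12 libraries was extracted on RNeasy columns before TruSeq Stranded mRNA library preparation, as the labels' protocols state. The authors deposited whole-number read counts per transcript, not normalized, and FPKM values scaled for transcript length and library size, with the extinction libraries kept in tables of their own. StringTie is named in the submitters' processing notes, and the deposited tables name mm10; the aligner is not given in the sources used here, and neither is any use of strand in counting. Gene counts were sums of the deposited transcript counts per gene identifier (36779 transcripts, 24531 genes). They differed from the deposited gene counts in 81 to 88 genes in the B6 libraries that could be compared, and by at most 0.0503% in total. Of the gene-level count columns, 1 was matched to no sample and was not used. No 2 libraries were identical.

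The 4 B6 libraries were fitted with edgeR 4.0.16 in R 4.3.3 (quasi-likelihood F test, filterByExpr, TMM scaling, region and condition as terms, 1 residual degree of freedom), and P-values were adjusted by Benjamini and Hochberg over all genes tested, with a threshold of 0.05. The difference between strains came from a fit of 8 libraries with region and condition nested in strain (2 residual degrees of freedom). Fold changes within a region are differences of log2 CPM with a prior count of 2. SE is the log2 fold change divided by the root of F. The spread of each gene in the 4-library fit was pooled with that of other genes (8.87 prior degrees of freedom). Alternatives used DESeq2 1.42.0, limma 3.58.1 on log2(FPKM + 1), other filters and libraries left out. The scripts were tested on simulated counts. RefSeq promoters (GRCm38.p6) were searched for motifs.

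Genes were named by a rule: those past the threshold, then the largest changes shared by both regions up to 12 places a direction (mean CPM of at least 1, predicted genes, pseudogenes and microRNAs left out), 5 genes a direction changed in 1 region alone, list members, and the strongest strain differences. One gene that the rule names is not reported here. Nutf2-ps1, Tmem181c-ps, Zfp973, DXBay18 and Hbb-b1 were named after their values were seen. The comparison, lists and members were chosen with earlier results of these data known. Since the libraries are not stated to come from separate mice, spread between them may be technical.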

Additional observations from a re-analysis of the deposited data

Results flagged for a closer look

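Hbb-bs was the 1 gene whose change with conditioning differed between B6 and S1 mice past the threshold, with a B6 minus S1 difference of 13.05 on the log2 scale (edgeR adjusted p = 0.0022). It was 0.79 in BLA and 0.85 in CeA of B6 mice, and in S1 mice all but 1 library had 0 counts.

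Each of 13 further genes named in the text had one sign in both B6 regions and the other sign in both S1 regions, and none of their differences passed the threshold. Lower in FC in B6 and higher in S1 were Tmem181c-ps (B6 minus S1 difference −20.46, edgeR adjusted p = 0.31), Gvin1 (−9.83, 0.96), Klhdc7a (−4.34), Adamts20 (−1.52), Grin2b (−1.40), Slc9a4 (−1.39), Grin2a (−1.04), Zbtb16 (−0.88) and Nts (−0.37). Higher in FC in B6 and lower in S1 were Hba-a1 (2.43), Rassf7 (1.82), AI606473 (1.25) and Pdyn (0.41). The edgeR adjusted p was 1 for the 11 genes given without one. Several of these rest on libraries at or near 0 counts, as given above for Tmem181c-ps, Gvin1 and Klhdc7a. Hba-a1 had 33 and 0 counts in the S1 FC BLA and CeA libraries, against 33 and 22 in the naive ones. Summed with Hba-a2, its log2 ratio in S1 mice was positive, at 1.03 in BLA and 0.48 in CeA.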

How the results depend on the processing

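No paired analysis was possible because each group has 1 library and all carry the number 1; region already matched the libraries. All 11 genes past the threshold kept their sign in every setting. The 3 higher and 8 lower calls became 5 higher with DESeq2, 4 lower with no filter on low counts, 4 lower with limma on log2(FPKM + 1), and 0 and 0 both without the region term (45 genes at an unadjusted p under 0.05) and for the B6 effect in the fit of 8 libraries (369), where 2 residual degrees of freedom include the S1 libraries. With 1 library left out of that fit, the higher count ranged from 3 to 19 and the lower from 6 to 12. Of the 11 calls, 8 remained with DESeq2, 7 with limma, 6 with no filter and 11 with DESeq2 size factors. Without a B6 library 2 of the 11 calls remained, and without an S1 library 9 to 11. The strain difference counted 1 gene, 11 with DESeq2, 0 with a shared region term (293 at an unadjusted p under 0.05), and 8 to 41 with 1 library left out, each of which raised it. Genes 1.5-fold higher in both regions numbered 109, but 240 with no filter, 32 at 2-fold and 9 on log2(FPKM + 1). For lower genes 120 became 270, 23 and 12. Effector genes higher in both regions numbered 16 of 32, and 25 were higher in the BLA pair alone, a setting chosen after seeing the data. The cause of these differences was not tested. Of the named genes' other values, 1097 kept their side of the threshold, 77 lost the call, 36 gained one and 0 called values reversed. A change of sign was counted only for values past the threshold in either setting. The 1-region differences of Celf2, Chtop, Cers1, Jund, Slc30a4 and Urgcp passed without a B6 CeA library, and those of Elmod2, Mdm4 and Gtf2a1 without a B6 BLA library, where B6 mice are assumed to vary like S1 mice. Depth limited values near the floor of 3 counts.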

Other observations

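Some genes past the threshold were also read in the B6 extinction libraries of the separate table. There Shroom2 stood at 21.4 CPM (BLA) and 33.8 CPM (CeA), and Gopc at 79.1 CPM (BLA) and 81.1 CPM (CeA). Phc3 stood at 44.1 CPM (BLA) and 2.58 CPM (CeA), and Nutf2-ps1 at 34.0 CPM (BLA) and 1.32 CPM (CeA). They were normalized apart from the others and are given as levels.

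Timp1, an inhibitor of matrix metalloproteases, had 17 counts in FC BLA and 25 in FC CeA, against 0 in both naive libraries (edgeR adjusted p = 0.54). Gjb6, the astrocyte connexin 30, had 31.0 CPM in FC BLA and 34.4 CPM in FC CeA, against 22.4 CPM in naive BLA and 25.7 CPM in naive CeA (log2 fold change 0.44 ± 0.12), with 0.45 in BLA and 0.68 in CeA of S1 mice. Of the 12 astrocyte markers that include it, 3 were higher in FC BLA (median −0.11) and 9 in FC CeA (median 0.06). The shares of all genes were 49.3% and 49.9%. P2ry12, a microglial receptor, had 47.2 and 43.3 CPM in FC against 53.8 and 60.4 CPM in the naive BLA and CeA libraries (−0.34 ± 0.13). It was 1 of 6 of the 13 microglial markers that were lower in both FC libraries (20.5% of all genes). The oligodendrocyte marker Opalin had 10.96 and 11.7 CPM in FC against 15.8 and 14.5 CPM in naive libraries (−0.42 ± 0.15). Of the 12 oligodendrocyte markers, 2 including Opalin were lower in both FC libraries, near the 20.5% of all genes. The edgeR adjusted p was 1 for Gjb6, P2ry12 and Opalin.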
